A study of Mus musculus with 27 samples.

Results

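The windows described here were the autosomal stretches of at least 1000 and under 3000 bp in a table that cut the mouse genome into windows of 100 CpG. A CpG is a cytosine followed by a guanine, and because each window was built to the same number of CpG, a short window is CpG-dense DNA. The rule used length alone and no methylation value, apart from asking for a value in all 27 libraries. It gave 56998 windows of 444250 tested, or 12.8 percent, and of 58911 such windows before the filter on values. Together they covered 130.3 Mb, and their median length was 2407 bp. The other autosomal windows tested were 15884 of under 1 kb, 348311 of 3 to 16 kb and 948 of over 16 kb.

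Whole-genome bisulfite sequencing, which reads protected cytosines as methylated, was run on mouse embryonic stem cells grown in 2i/Lif (D0) and on the same lines 1 day (D1) and 2 days (D2) after they were moved towards epiblast-like cells. Line TET_KO lacks Tet1, Tet2 and Tet3, and TET_WT is the parental line it came from. DNMT_WT is a second wild-type line, the parent of a Dnmt knockout that was not analysed here. Each of the 9 groups of line and day held 3 libraries. Every group was of cultured cells of 1 labelled line, no label ties a replicate to a culture of its own, and p-values therefore measure the spread between libraries, which may be technical. Bisulfite does not separate 5-methylcytosine from 5-hydroxymethylcytosine, and neither the cell type nor the Tet deletion can be checked on methylation values.

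In mammals the densest CpG clusters, called CpG islands, mostly sit at gene starts and are usually unmethylated, while the bulk of the genome is methylated. The DNA that flanks an island is known as the island shore, where methylation often differs between cell types. The Dnmt3a and Dnmt3b enzymes place new methyl groups, Dnmt1 copies them at replication, and Tet enzymes oxidise them, which leads to their removal. Naive cells in 2i/Lif carry little methylation and gain it as they pass to the epiblast-like state.

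A minority of the windows held gene starts, and the 250 bases before 6 of those starts are shown because their windows ran from unmethylated everywhere to strongly different between the lines. The genes were chosen after their values were seen. Sequences are from RefSeq on build GRCm38.p6, 5′ to 3′ on the strand of the gene, with each CG in capitals. CG is its own reverse complement, so 1 search covers both strands. Trim28, a corepressor needed to keep imprints, was read at chr7:13023902-13024151 on the plus strand with 17 CG. Nanog, a transcription factor of naive pluripotency, was read at chr6:122707239-122707488 on the plus strand with 3 CG. Tcl1, a cofactor of the Akt kinase expressed in naive cells, was read at chr12:105222738-105222987 on the minus strand with 7 CG. Hoxa7, a body-axis homeobox gene, was read at chr6:52218574-52218823 on the minus strand with 7 CG. Tbx6, a T-box factor of paraxial mesoderm, was read at chr7:126781233-126781482 on the plus strand with 6 CG. Hormad1, a meiotic chromosome axis protein, was read at chr3:95559427-95559676 on the plus strand with 19 CG.
Trim28: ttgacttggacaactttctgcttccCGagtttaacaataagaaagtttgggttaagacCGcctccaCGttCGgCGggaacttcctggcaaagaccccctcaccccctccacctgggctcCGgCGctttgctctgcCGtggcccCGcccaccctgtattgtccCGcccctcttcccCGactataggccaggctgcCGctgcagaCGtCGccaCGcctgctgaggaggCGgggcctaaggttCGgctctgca
Nanog: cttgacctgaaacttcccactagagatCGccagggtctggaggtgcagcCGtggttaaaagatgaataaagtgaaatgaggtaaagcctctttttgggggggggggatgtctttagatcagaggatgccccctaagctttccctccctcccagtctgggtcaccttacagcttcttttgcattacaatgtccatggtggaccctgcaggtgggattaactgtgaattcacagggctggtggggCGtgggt
Tcl1: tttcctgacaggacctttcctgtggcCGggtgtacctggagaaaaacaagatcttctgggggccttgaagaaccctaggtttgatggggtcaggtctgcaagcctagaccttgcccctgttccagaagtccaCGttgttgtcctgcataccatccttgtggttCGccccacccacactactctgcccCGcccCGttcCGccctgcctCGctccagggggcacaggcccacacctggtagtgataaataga
Hoxa7: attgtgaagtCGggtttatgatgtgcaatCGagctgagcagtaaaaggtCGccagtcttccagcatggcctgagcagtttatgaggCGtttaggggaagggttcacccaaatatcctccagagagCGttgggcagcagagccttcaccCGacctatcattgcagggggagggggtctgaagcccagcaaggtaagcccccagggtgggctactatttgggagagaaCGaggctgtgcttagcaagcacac
Tbx6: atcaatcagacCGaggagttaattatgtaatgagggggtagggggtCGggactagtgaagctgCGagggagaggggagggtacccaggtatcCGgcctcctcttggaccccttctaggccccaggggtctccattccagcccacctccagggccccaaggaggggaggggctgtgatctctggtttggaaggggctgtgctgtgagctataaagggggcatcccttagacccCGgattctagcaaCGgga
Hormad1: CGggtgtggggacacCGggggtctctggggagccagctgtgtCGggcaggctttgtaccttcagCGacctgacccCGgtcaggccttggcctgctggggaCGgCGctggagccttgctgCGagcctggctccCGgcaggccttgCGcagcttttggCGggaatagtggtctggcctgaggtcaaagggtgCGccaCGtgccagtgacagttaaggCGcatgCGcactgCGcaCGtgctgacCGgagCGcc

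Of all 32851 starts in the RefSeq table, 92.1 percent had at least 1 CG in these 250 bases and the median was 6. The window at Trim28 stayed near 0 in every group, with a highest group mean of 1.01 ± 0.394 percent (SD, n = 3). The Nanog window stood at 0.116 ± 0.0377 percent in TET_WT and 1.61 ± 0.295 percent in TET_KO on D0. On D2 its libraries read 3.95, 6.39 and 5.35 percent in TET_WT and 23.0, 23.0 and 21.8 percent in TET_KO, so the lines did not overlap, and they differed by 17.4 points (SE 0.594, limma adjusted p = 2.48e-18), although relative to the median tested window of each library TET_KO was 3.35 points lower there. The Tcl1 window rose late in both lines. Its libraries read 29.5, 33.5 and 31.2 percent in TET_WT on D2 and 27.8, 34.1 and 34.7 percent in TET_KO, ranges that overlapped, and the lines were 0.857 points (SE 1.26, limma adjusted p = 0.511) apart, which did not pass the test. The sign of that difference turned without TET_WT library 1, TET_KO library 2 or TET_KO library 3 of D2. The Hormad1 window instead differed from the start. On D0 it read 8.41, 11.7 and 9.99 percent in TET_WT and 53.8, 64.3 and 56.8 percent in TET_KO, a difference of 48.2 points (SE 2.71, limma adjusted p = 1.90e-15). Tbx6 read 12.6, 16.8 and 19.8 percent in TET_WT and 55.7, 66.2 and 62.5 percent in TET_KO on D0. Hoxa7 read 13.2, 15.5 and 16.6 percent against 50.6, 53.5 and 51.4 percent. In both windows every TET_KO library of D0 lay above every TET_WT library of D0. The number of CG in the 250 bases did not order the 6 windows: Trim28 with 17 and Hormad1 with 19 stood at 0.541 and 58.3 percent in TET_KO on D0. The 6 were chosen by their values, so this does not describe starts at large. Over all windows with a start, levels in TET_KO on D2 fell with the number of CG around it, as given below.

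**Figure D1:**
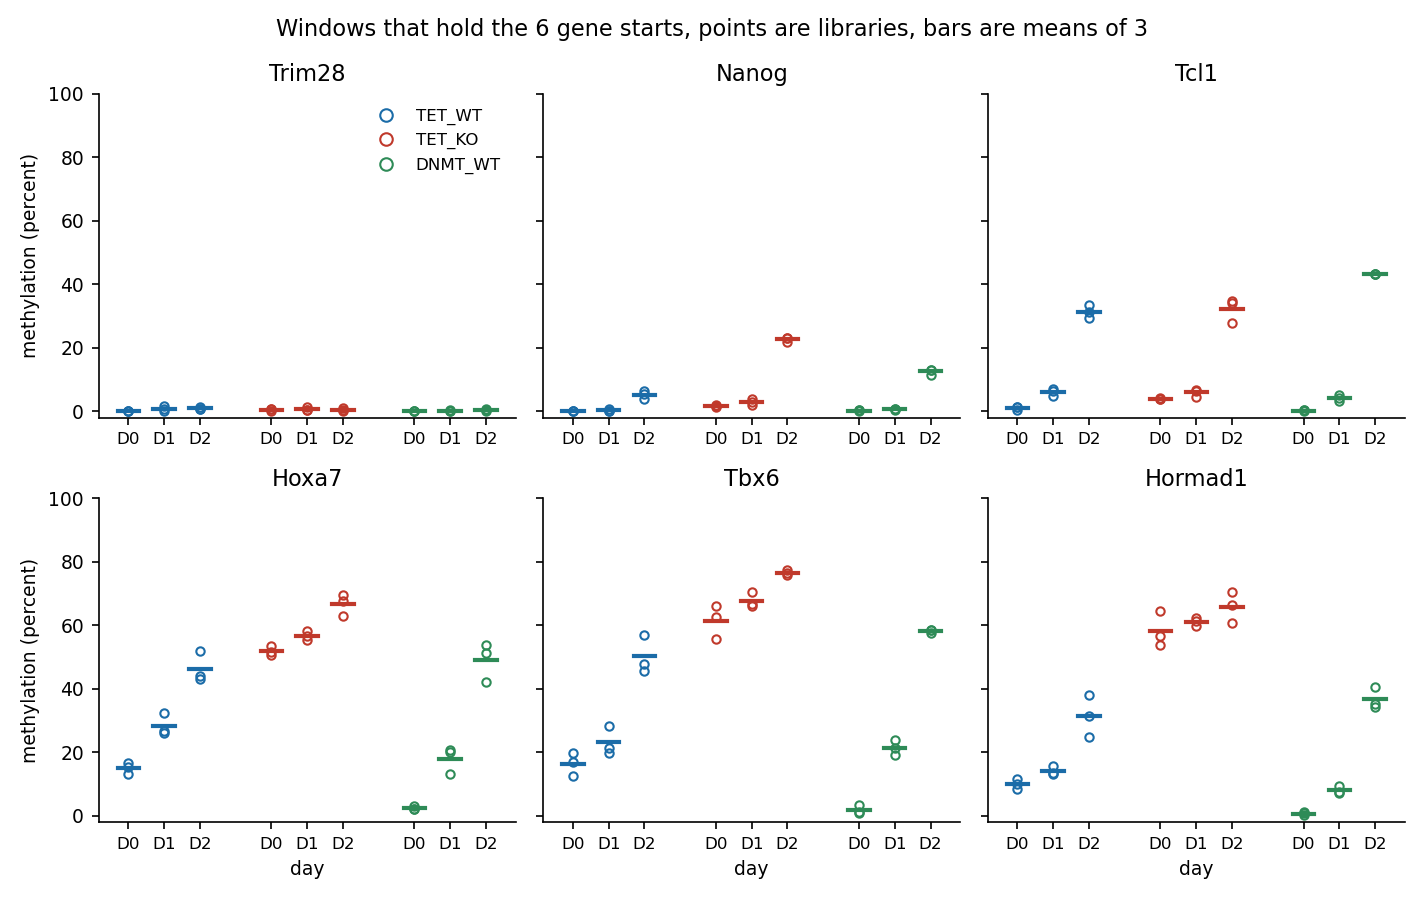
Methylation in percent (vertical axis) of the 6 windows that hold the printed starts, by line and day (horizontal axis); each point is 1 library and each bar the mean of 3. Trim28 stays near 0, Nanog and Tcl1 rise on D2 in percent, and Hoxa7, Tbx6 and Hormad1 are higher in TET_KO than in TET_WT on D0. Relative to the median tested window Nanog falls in TET_WT, as does any window that gains less than the library medians.

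Across all 56998 windows the level rose with time in every line, and TET_KO was the most methylated line on each day. The mean over windows in TET_WT was 22.6 ± 0.311 percent on D0 (SD over 3 library means), 29.8 ± 1.55 on D1 and 47.8 ± 2.04 on D2. In TET_KO it was 47.3 ± 0.950, 53.4 ± 0.517 and 62.1 ± 0.955 percent. DNMT_WT went from 4.01 ± 0.0728 through 15.5 ± 0.294 to 47.8 ± 0.412 percent. Naive TET_KO cells thus had nearly the mean of TET_WT and DNMT_WT cells on D2. The windows were far more spread than the rest of the genome: in TET_WT on D2 the middle 80 percent ran from 9.5 to 76.4 percent, against 35.5 to 73.0 percent in windows of 3 to 16 kb.

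**Figure D2:**
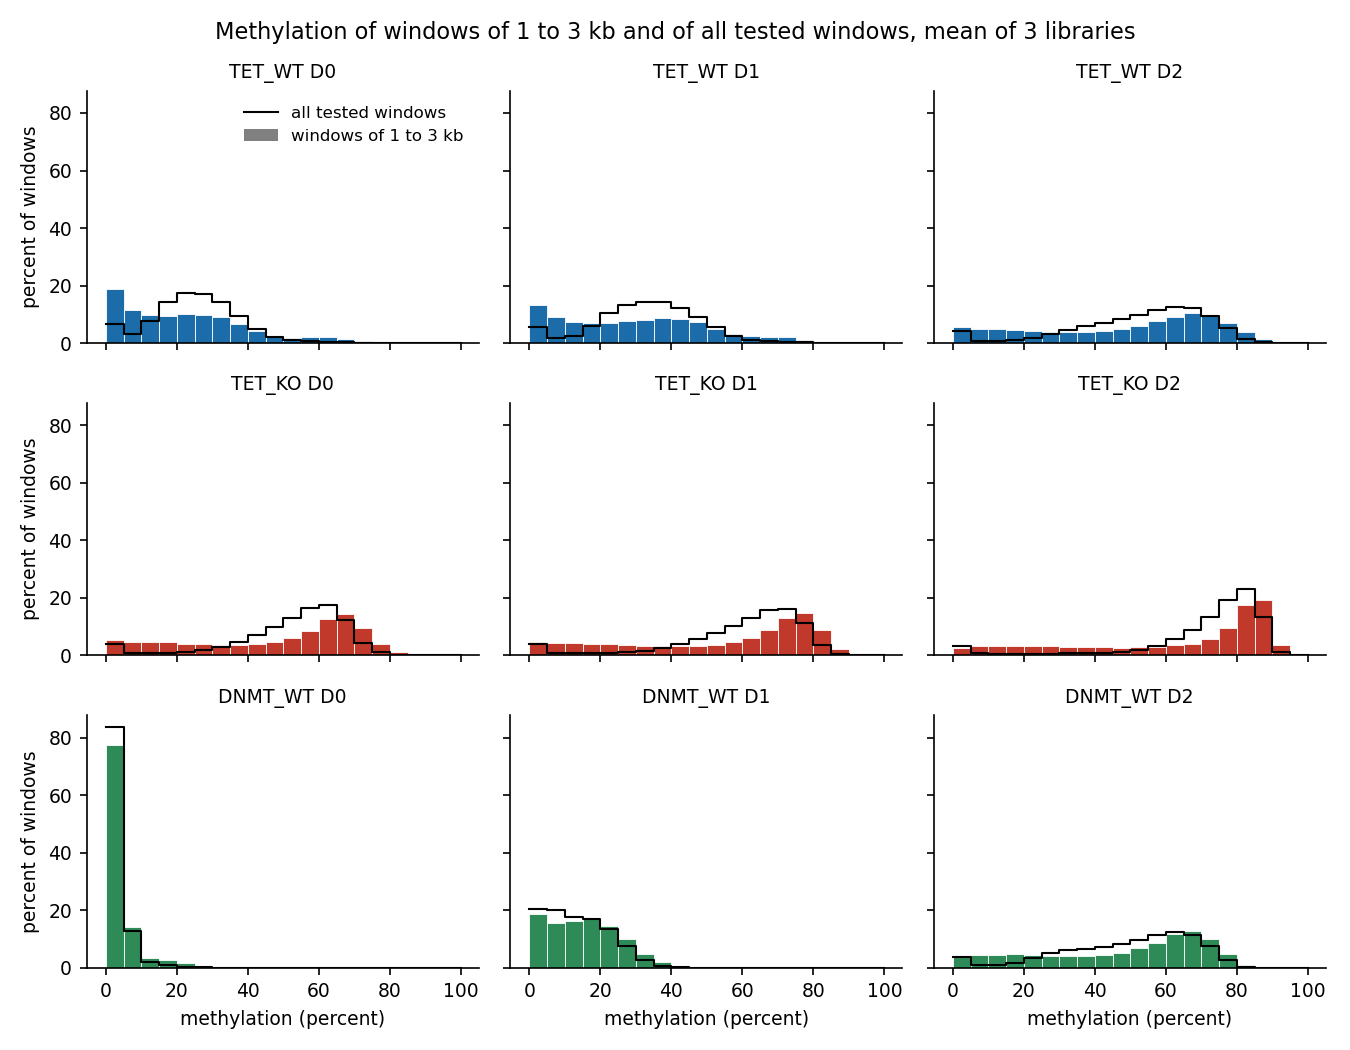
Percent of windows (vertical axis) in steps of 5 points of methylation (horizontal axis), group means of 3 libraries; bars are the windows of 1 to 3 kb and the line is all 444250 tested windows. In TET_WT the share of the 1 to 3 kb windows below 10 percent fell from 30.1 percent on D0 to 10.5 percent on D2, and in TET_KO on D2 it was 5.98 percent.

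Compared with windows of 3 to 16 kb, the 1 to 3 kb windows were less methylated in TET_WT and TET_KO on every day, for example 62.1 against 75.3 percent in TET_KO on D2. In DNMT_WT on D0 and D1 the order of the means was the other way. The 3 library means were 3.93, 4.06 and 4.06 percent on D0 against 3.08, 3.17 and 3.21 in the longer windows, and the means on D1 were 15.5 against 14.1 percent. The medians on D0 were close, at 2.47 and 2.46 percent, so the higher mean came from a tail: 8.61 percent was the 90th percentile of the 1 to 3 kb windows and 5.93 that of the longer ones. The TET_WT libraries numbered 2 stood somewhat apart, at 28.0 percent on D1, below 30.7 and 30.7, and at 50.1 on D2, above 47.4 and 46.1. The deposited values carry no read counts, so the depth behind each window is unknown.

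Within the class, methylation rose steeply with length. In windows under 1500 bp (n = 6709) the median was 2.40 percent in TET_WT on D0 and 16.7 percent in TET_KO on D2. The 9353 windows from 1500 to under 2000 bp had 11.4 and 53.7 percent, the 16061 from 2000 to under 2500 bp 21.0 and 76.5, and the 24875 of 2500 bp and more 25.3 and 80.2. The same order held in each of the 9 groups. At the lower limit the rule divided like from like: the median in TET_KO on D2 was 5.67 percent in the 735 windows just too short and 6.90 in the 636 just long enough. At the upper limit it was 80.6 percent inside (n = 2876) and 80.8 outside (n = 3008). The windows therefore span the whole passage from unmethylated dense DNA to the level of the bulk genome.

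**Figure D3:**
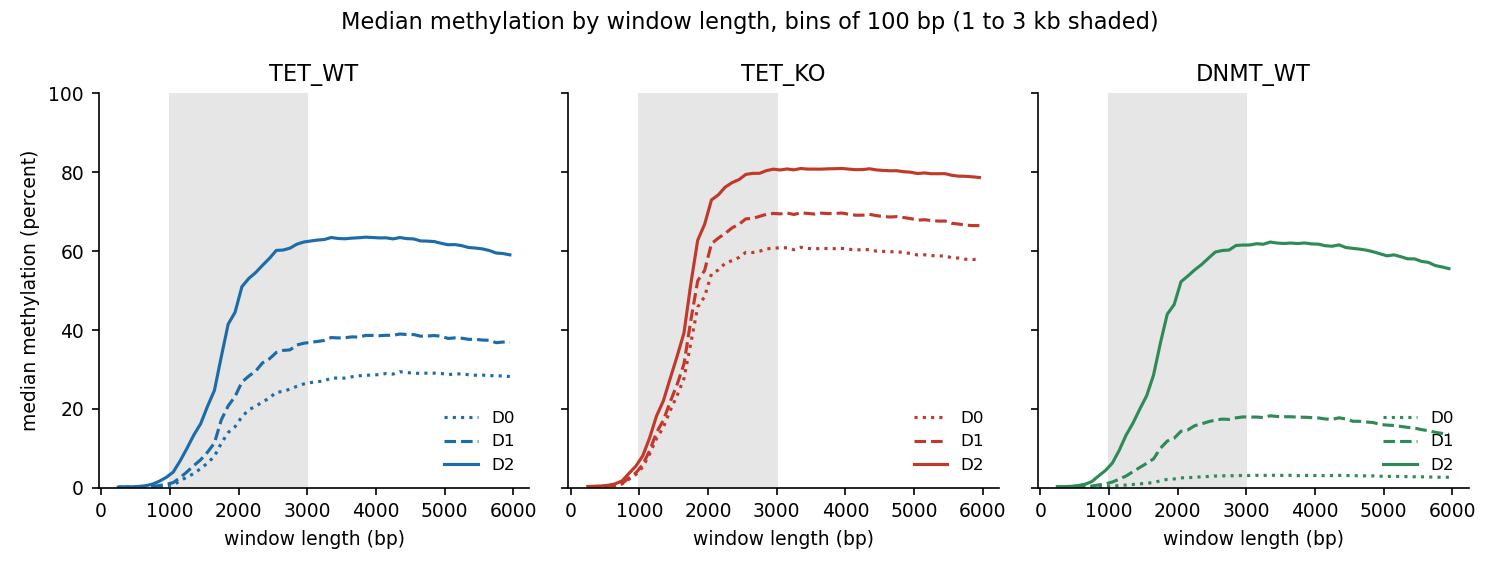
Median methylation in percent (vertical axis) by window length in bins of 100 bp (horizontal axis) for autosomal windows, 1 panel per line and 1 curve per day, with 1 to 3 kb shaded. Below 1 kb all curves lie near 0, they climb within the shaded range, and they are nearly flat by its right edge, where TET_KO on D2 reaches 80.6 percent.

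Position beside a denser window was tied to low methylation. In 6520 triplets of neighbouring windows, a window of under 1 kb was followed by one of 1 to 3 kb and then by one of 3 kb or more. In naive TET_WT cells the 3 positions had means of 0.895 ± 0.0310, 7.15 ± 0.101 and 23.1 ± 0.338 percent (SD over 3 libraries). In TET_WT on D2 they had 1.86 ± 0.0353, 19.2 ± 1.41 and 55.2 ± 2.65. In TET_KO on D0 they had 2.38 ± 0.0728, 19.7 ± 0.420 and 53.2 ± 1.08 percent, and on D2 3.22 ± 0.0984, 28.1 ± 0.584 and 73.8 ± 1.21. The densest window had its highest mean, 3.22 percent, in TET_KO on D2, and the middle one gained in all lines without reaching the outer one. Methylation rose at both steps outward in 88.8 percent of the triplets in TET_WT on D0 and in 95.1 percent in TET_KO on D2. The lowest share was 70.1 percent, in DNMT_WT on D0, where all 3 positions had means of at most 3.08 percent.

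**Figure D4:**
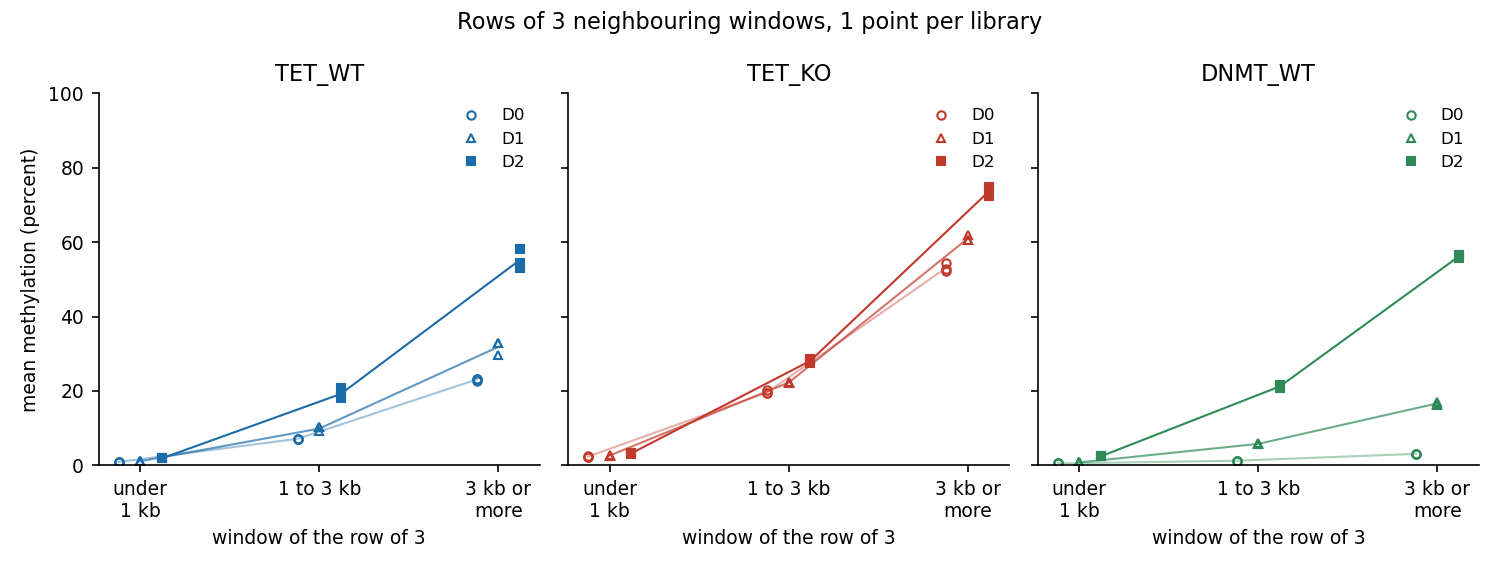
Mean methylation in percent (vertical axis) at the 3 positions of 6520 triplets of neighbouring windows (horizontal axis), 1 panel per line; each symbol is 1 library and lines join the means of each day. In every line the 1 to 3 kb window lies between its denser and its less dense neighbour, for example at 19.2 percent in TET_WT on D2.

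Neighbourhood and gene starts sorted the windows in the same direction as length did. The 9621 windows beside one of under 1 kb had a median of 16.4 percent in TET_WT on D2, against 60.8 in the 20069 with longer windows on both sides. The 6310 windows that held a gene start had 17.8 percent and the 48994 that held none had 57.4. Starts were not looked up for the 1694 windows on chromosome 18. Windows with no start but a dense neighbour (n = 7550) had a median of 17.6, close to the 17.8 of all windows with a start. By the number of CG in the 300 bases around the start, medians in TET_KO on D2 fell from 66.4 percent with 0 to 4 CG (n = 554) through 58.5 with 5 to 9 (n = 1420) and 24.2 with 10 to 19 (n = 2369) to 15.1 with 20 or more (n = 1967). Starts in these windows had a median of 14 CG there, between 28 in windows of under 1 kb and 3 in windows of 3 to 16 kb. Gene bodies overlapped 78.4 percent of the windows and 63.4 percent of all autosomal windows tested. Windows outside genes (n = 12331) were the more methylated, with 28.4 against 18.3 percent in TET_WT on D0.

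The passage from D1 to D2 in TET_WT was the main step of that line. A window was called when the limma adjusted p was under 0.05 and the difference at least 10 percentage points. Between D1 and D2, 43325 of 56998 windows (76.0 percent) rose and 1 fell, against 88 percent of all tested windows rising and 0.00225 percent falling. The library medians over all tested windows rose by 22.4 points on average in this step, while the median of the window differences was 20.4 points. With each library centred on its own median, 2401 of the 1 to 3 kb windows were higher and 17251 lower. Relative to the library medians most of those called were therefore lower. Centring takes the same amount off every window of a library. A window near 0 on both days thus comes out lower by nearly the whole shift, whatever its own behaviour. The Trim28 window, which rose by 0.233 points, became -22.2 points. This limit holds for every centred comparison given here. The largest rises began from levels below the class mean on D1, as picking by rise on a scale with an upper limit favours. At Mapt, which encodes the microtubule protein tau, the window chr11:104305028-104307648 read 17.9, 11.4 and 12.9 percent on D1 and 67.3, 74.3 and 58.7 percent on D2. It rose by 52.7 points (SE 3.45, limma adjusted p = 2.36e-13). At Llgl2, a cell polarity gene, the libraries went from 8.88, 9.49 and 4.86 percent to 53.6, 66.9 and 49.7 percent at chr11:115835355-115837980. Macroh2a1, the gene of a histone variant, rose by 48.6 points (SE 2.28, limma adjusted p = 3.40e-15). Ctdspl, a phosphatase gene, rose by 48.4, Ptprf, a receptor phosphatase, by 48.3, Pdzrn3, a ubiquitin ligase, by 48.7 and Aqp3, a water and glycerol channel, by 48.0 points. In all 7 windows every library of D2 lay above every library of D1.

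The gene lists were not compared by a test. Their counts have to be read against the 76.0 percent of the class and 88 percent of all tested windows that rose. Their medians have to be read against the median difference of 20.4 points over all tested windows. Among 168 windows of blood and endothelial regulators, 129 rose, and their median rise was 21.7 points. They included Kit, a stem cell factor receptor (35.7 to 76.2 percent), the leukemia-linked factor Etv6 (27.3 to 67.2), Eng, the TGF-beta coreceptor endoglin (14.9 to 51.1), and Runx1, the master factor of blood formation (39.4 to 74.3). Of 56 windows of naive pluripotency genes 42 rose (median 21.6 points), among them windows of the nuclear receptor Esrrb (21.6 to 63.8 percent), of Klf5 (9.87 to 41.9), of Sall4 (22.8 to 58.9) and of the adhesion gene Pecam1 (32.8 to 68.5). Of 53 windows of formative and primed epiblast genes 32 rose (median 18.1), including the Wnt effector Lef1 (29.6 to 62.4), the ETS factor Etv4 (15.7 to 46.3) and Fgf5, the growth factor that marks the epiblast (34.0 to 56.7, 0.263 points once centred).

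For all 1 to 3 kb windows the median rise was 19.2 points. Of the windows of Hox genes 20.8 percent (21 windows) rose with a median of 5.80 points, for example at Hoxa9 (27.2 to 49.8 percent, a difference of 0.168 points once centred) and Hoxa3 (28.4 to 48.9, which is -1.94 points once centred). Of 79 neuroectoderm windows 20 rose (median 5.44), with Pax7 (21.6 to 52.2) and the neuronal tubulin Tubb3 (45.2 to 67.8, 0.155 points once centred) among them. Mesoderm and endoderm genes had 36 of 65 rising (median 11), with Eomes at 10.8 to 40.2 percent. Imprinted loci had 33 of 62 (median 11.1), with Sgce from 33.6 to 65.3 and the noncoding RNA gene Meg3 from 33.6 to 62.8. Germline genes had 21 of 26 (median 19.2), including the meiotic telomere gene Majin (38.6 to 68.3) and the piRNA-pathway gene Piwil1 (17.4 to 43.5). Genes of the methylation machinery had 53 of 74 (median 20.2), with Uhrf1, the partner of Dnmt1, from 27 to 64.5 and Tet3 from 29.0 to 66.0. Ubiquitously expressed genes had 9 of 34 (median 4.85), the elongation factor gene Eef2 going from 7.02 to 38.4 and Gapdh, of glycolysis, from 12.4 to 29.4, which is -5.38 points once centred. No window of any list fell. Relative to the 22.4 points by which the library medians rose, the medians of all 10 lists were below 0. They ran from -0.655 points for blood and endothelial regulators to -17.5 for ubiquitously expressed genes. Windows that stay low fall below the shift by construction, and the median levels of the ubiquitously expressed genes were 3.59 percent on D1 and 7.25 on D2. Against the median difference of 20.4 points over all tested windows, blood and endothelial regulators (21.7) and naive pluripotency genes (21.6) lay above, and the other lists below.

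The first day was the smaller step in TET_WT. Between D0 and D1, 17227 windows (30.2 percent) rose and 8 fell, against 27.6 and 0.00675 percent of all tested windows, and the mean rose by 7.22 points (SE 0.912). At Tmem181a the libraries went from 18.5, 23.6 and 29.7 percent to 54.2, 46.2 and 54.8 percent, and at Auts2, a neurodevelopmental gene, from 22.2, 21.5 and 23.0 percent to 51.1, 39.2 and 57.6 percent. The window of Lhfp fell by 18.3 points (SE 3.82, limma adjusted p = 2.14e-04), the largest of the falls called. Centred on the library medians, 423 windows were higher and 240 lower in this step.

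DNMT_WT started lower and gained more. From D0 to D1, 31975 windows (56.1 percent) rose and 2 fell, against 49 and 0.00135 percent of all tested windows. From D1 to D2, 50527 (88.6 percent) rose and 0 fell, against 94.9 and 0.0009 percent, and by limma 1 windows were lower at an unadjusted p under 0.05, 0 of them by 10 points or more. The logit scale also gave 0 falls. Etl4 had the largest rise of the first day, from 14.6, 18.2 and 18.7 percent to 53.1, 60.2 and 53.5 percent. Golt1b, a Golgi transport gene, rose by 64.3 points (SE 4.49, limma adjusted p = 4.57e-14) on the second day, and the Ptprf window named above went from 6.26, 8.90 and 13.5 percent to 73.9, 74.5 and 71.3 percent. Centred on the library medians, the counts were 6914 higher and 1483 lower on the first day and 2250 and 21140 on the second. The mean difference once centred was 1.16 points on the first day and -8.16 on the second.

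TET_KO, already high on D0, gained less. From D0 to D1, 9992 windows (17.5 percent) rose and 3 fell, against 20.1 and 0.00225 percent of all tested windows. From D1 to D2, 20392 (35.8 percent) rose and 6 fell, against 65.8 and 0.00428 percent. The largest gains of the second day were in windows below the class mean on D1, as picking by gain on a scale with an upper limit favours. A second window of Esrrb, at chr12:86480341-86483253, went from 22.5, 19 and 22.4 percent to 65.2, 71.5 and 59.1 percent. Slc29a3, a nucleoside transporter gene, rose by 43.0 points, Trp53cor1, a p53-induced noncoding RNA gene, by 42.5 and Wrap53, a telomerase cofactor gene next to Trp53, by 41.9. In each of the 4 windows every library of D2 lay above every library of D1. Centred on the library medians, 22 windows were higher and 346 lower in the first step, and 539 and 5310 in the second.

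In naive cells TET_KO was more methylated than its parent over most of the class. On D0, 46472 windows (81.5 percent) were higher in TET_KO and 49 lower, against 92.9 and 0.0223 percent of all tested windows. The mean difference was 24.7 points (SE 0.577), and all 3 TET_KO library means were above all 3 of TET_WT. The library medians over all tested windows were 30.4 points higher in TET_KO on average, while the median of the window differences was 27.5 points. Centred on the library medians, 6234 windows were higher in TET_KO and 21061 lower. The share called rose with length, from 39.6 percent under 1500 bp to 94.0 percent at 2500 bp and more. It was 54.3 percent in windows with a gene start and 85.0 percent in those without.

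The window with the largest difference lay in Lhx9, a LIM homeobox gene of gonad and brain, at chr1:138840133-138841660. Its libraries read 4.83, 3.42 and 5.15 percent in TET_WT and 82.7, 82.8 and 82.0 percent in TET_KO, a difference of 78.0 points (SE 1.69, limma adjusted p = 8.34e-22). A pair of adjoining windows outside annotated genes, chr11:98066172-98067605 and chr11:98067644-98069508, had means of 1.24 and 4.83 percent in TET_WT and of 70.1 and 72.8 in TET_KO. Fat1, an atypical cadherin, read 8.21, 9.36 and 9.14 percent in TET_WT and 79.3, 69.3 and 79.4 percent in TET_KO at chr8:45025137-45026169. Windows of Rbpms, an RNA-binding protein gene, of Fn1, the gene of fibronectin, and of the kinase gene Map3k1 were higher by 67.1, 66.6 and 65.8 points. All of these windows were low in the parent and mostly methylated in the knockout, as picking by the largest difference favours.

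The 49 windows that were lower in TET_KO had a median of 57.4 percent in TET_WT and 36.5 in TET_KO on D0. Picking windows at least 10 points lower favours a high level in the parent. The largest drop was in Erc2, a presynaptic scaffold gene, with 70.5, 71.9 and 59.2 percent in TET_WT and 17.8, 34.8 and 26.1 percent in TET_KO. A window shared by Trappc9 and the imprinted noncoding gene Peg13 inside it, chr15:72810123-72812517, read 48.9, 51.4 and 44.8 percent against 20.7, 21.2 and 23.9 percent, a difference of -26.4 points (SE 1.77, limma adjusted p = 4.38e-14). Zfp605, a zinc finger gene, differed by -23.7 points and the predicted gene Gm8493 by -25.5. Zinc finger and predicted genes can share reads with near-identical copies, so the values of both are uncertain. Of 62 windows of imprinted loci 41 were higher and 3 lower, against 92.9 and 0.0223 percent of all tested windows. The other 2 of the 3 were at Peg3, a paternally expressed zinc finger gene, named here after their values were seen. The window chr7:6727526-6729452 read 16.7, 19.6 and 17.4 percent in TET_WT and 0, 0.505 and 1.22 percent in TET_KO, and chr7:6730332-6731874, which holds the Peg3 start, read 23.4, 14.9 and 18.4 percent and 6.37, 7.30 and 5.83 percent. In DNMT_WT these 2 windows were at 0.411 and 0.624 percent on D0, when most windows of that line were low.

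Each list had windows that were higher in TET_KO on D0. These counts have to be read against the 81.5 percent of the class and 92.9 percent of all tested windows that were higher. The highest share of a list was 88.7 percent, for blood and endothelial regulators, and the lists were not compared by a test. Methylation machinery genes had 60 of 74, with a median difference of 30.7 points. They included Tet1, itself deleted in TET_KO, whose window chr10:62878194-62880002 read 3.66, 4.25 and 4.18 percent in TET_WT and 61.3, 60.5 and 63.8 percent in TET_KO, and Uhrf1 (12.7 and 67.3 percent). Blood and endothelial regulators had 149 of 168 (median 31.5), among them Kit (11.5 and 67.6), Etv6 (13.1 and 66.6), the VEGF receptor gene Kdr (16.7 and 63.0) and Runx1 (11.2 and 59.2). Naive pluripotency genes had 34 of 56 (median 18.7), among them Esrrb (9.11 and 68.5), Sall4 (4.54 and 63.1), Jam2 (24.2 and 74.5) and Klf5 (3.74 and 52.7). Formative and primed genes had 43 of 53 (median 25.3), with Fgf5 at 25.3 and 65.5 percent.

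Of the Hox gene windows 64.4 percent (65) were higher (median 13.4 points), for example Hoxd3 (7.64 and 47.4 percent) and the Hoxa7 start shown above. Neuroectoderm genes had 52 of 79 (median 14.8), among them the forebrain factor Emx2 (8.52 and 55.6) and the midbrain factor En2 (8.34 and 49.9). Mesoderm and endoderm genes had 54 of 65 (median 21.2), with the Tbx6 start shown above. Germline genes had 22 of 26 (median 26.9), and imprinted loci a median of 16.1 points, with Peg10 at 26.4 and 73.5 percent. Ubiquitously expressed genes had the fewest, 9 of 34 (median 5.58), 2 of which were Eef2 (3.15 and 53.8) and Polr2a, the large subunit of RNA polymerase II (21.8 and 73.7). For all 1 to 3 kb windows the median was 26.6 points. Relative to the 30.4 points between the library medians, 8 of the 10 list medians were below 0. Those of methylation machinery and of blood and endothelial regulators were 0.322 and 1.15 points above it. The same 2 lists lay above the median difference of 27.5 points over all tested windows.

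The difference between the lines persisted on D1 and narrowed on D2. On D1, 46032 windows (80.8 percent) were higher in TET_KO and 56 lower, against 92.6 and 0.0248 percent of all tested windows. On D2, 38496 (67.5 percent) were higher and 95 lower, against 84.3 and 0.0542 percent, and the mean difference was 14.3 points (SE 1.30). Windows higher in TET_KO on all 3 days numbered 37729 (66.2 percent, against 83.4 percent of all tested windows), and windows lower on all 3 days 29 (0.0509 percent, against 0.0122). Centred on the library medians, 4498 windows were higher and 21757 lower on D1, and 2107 and 20163 on D2. The Lhx9 window stayed apart on D2, with 9.15, 7.67 and 10.4 percent in TET_WT and 88.4, 91.1 and 86.2 percent in TET_KO. A window at Mir142, a microRNA gene of blood cells, read 6.60, 9.32 and 6.33 percent and 74.8, 75.7 and 69.4 percent. It differed by 65.9 points (SE 1.88, limma adjusted p = 2.89e-19). Epha2, an ephrin receptor, differed by 62.0 points, the repressor Zbtb20 by 59.4, the scaffold gene Akap12 by 56.0, and a window holding a start of Tmem267 by 57.2. The Tet1 window was at 25.4 percent in TET_WT and 81.4 in TET_KO on D2.

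A set of 10 windows had group means below 10 percent in TET_WT and of 50 percent or more in TET_KO on D2. Besides the windows at Lhx9, Mir142, Tmem267 and the intergenic pair already given, they comprised a second window of Lhx9 (3.33 and 59.3 percent), one of the nucleoside transporter gene Slc28a1 (4.5 and 55.2), one of the axon guidance receptor gene Robo1 (9.80 and 51.2), and single windows outside genes on chromosomes 2 and 13. They were picked by these group means, so the gap is a description. Single libraries crossed the limits, such as 46.7 and 49.5 percent in TET_KO at Robo1 and 15.9 percent in TET_WT on chromosome 13. DNMT_WT, which did not enter the choice, had a mean of 6.70 to 44.0 percent in these windows on D2. It was below 20 percent in 7 of the 10, and the 3 others were the Mir142 window (44.0), 1 of the intergenic pair (40.2) and the window on chromosome 13 (34.4). It was below 10 percent in 1 of the 10, against 74.8 percent of all 1 to 3 kb windows that were below 10 in TET_WT on D2. These sets are unlike by choice. The 10 were picked by a high TET_KO level and had a median of 8.19 percent in TET_WT on D2. The windows below 10 percent in all 9 groups had a median of 2.62 percent there.

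Among the 95 windows lower in TET_KO on D2, the window of Trappc9 and Peg13 had the smallest limma adjusted p of the windows named, with 65.8, 64.6 and 63.2 percent in TET_WT and 27.9, 31.2 and 30.2 percent in TET_KO. Wiz, a zinc finger partner of the G9a methyltransferase, had the largest difference among windows in genes (-42.9 points), but its TET_WT libraries read 46.9, 77.1 and 68.9 percent, a wide spread, against 21.3, 28.6 and 14.3 percent. Tex21, a testis-expressed gene, read 54.3, 55.2 and 44.3 percent against 16.6, 14.1 and 15.7 percent. Of the imprinted loci, 37 of 62 windows were higher and 5 lower, against 84.3 and 0.0542 percent of all tested windows. The 5, some of them named after their values were seen, were 2 at Peg13, 2 at Peg3 and 1 at Gnas. Peg3 had means of 13.6 and 28.6 percent in TET_WT and 0.0378 and 7.27 in TET_KO. Gnas had 24.1 and 8.62. All 5 windows were also lower in DNMT_WT than in TET_WT on D2 by the same test, at 25.3 percent for the Peg13 window given above, 0.679 and 5.71 for Peg3 and 3.71 for Gnas. Of the 62 imprinted windows 14 (22.6 percent) were lower in DNMT_WT on D2, against 6.83 percent of the class and 10.5 percent of all tested windows. The 2 comparisons use the same TET_WT libraries and are not independent.

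Windows higher in TET_KO on D2 numbered 129 of 168 (median 16.4 points) for blood and endothelial regulators, 49 of 79 (median 14.6 points) for neuroectoderm, 59 (58.4 percent, median 11.9 points) for Hox genes and 48 of 65 (median 16.1 points) for mesoderm and endoderm genes. The counts here have to be read against the share of the class given above and the 84.3 percent of all tested windows. The highest share of a list was 76.8 percent, for blood and endothelial regulators. Pax3, of the neural crest, was at 21.4 percent in TET_WT and 61.6 in TET_KO, Emx2 at 21.5 and 70.6, and Hoxd3 at 18.2 and 61.2. Tal1, a blood factor, was at 16 and 46.1, Lyl1 at 35.7 and 66.4, and the heart and endoderm factor Gata4 at 28.4 and 63.6. The counts were 34 of 56 (median 13.2 points) for naive pluripotency, 39 of 53 (median 15.0 points) for formative and primed epiblast, 19 of 26 (median 15.5 points) for germline, 54 of 74 (median 17.4 points) for methylation machinery and 10 of 34 (median 5.22 points) for ubiquitously expressed genes. Examples were Sall4 (38.7 and 86.7 percent), Klf5 (35.5 and 76.3), the naive marker Zfp42 (23.2 and 55.9), Zic2 (17.3 and 53.0), Peg10 (46.2 and 85.6) and Hormad1 (31.5 and 65.8). For all 1 to 3 kb windows the median was 14.0 points. The library medians over all tested windows were 20.7 points higher in TET_KO on average, and relative to that shift every list median was below 0, from -3.38 to -15.5 points.

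Sorting the windows by their level in naive TET_WT cells showed how closely the other groups followed it. The 10683 windows below 5 percent on D0 had medians of 8.92 percent in TET_WT on D2 and 9.45 in TET_KO on D0. The 11026 windows of 10 to 20 percent had 44.0 and 46.4, and the 11261 of 20 to 30 percent 60.6 and 60.8. Above 30 percent the order of the pair turned: the 8896 windows of 30 to 40 percent had 69.5 in TET_WT on D2 and 66.7 in TET_KO on D0, and the 4844 of 50 percent or more 80.2 and 74.0. DNMT_WT on D2 followed the same course up to 40 percent, with 11.6 percent in the lowest class and 67.9 at 30 to 40 percent, and ended at 69.9 in the highest. The classes were cut on TET_WT D0, so that group's own values carry no information here. Across windows the Pearson correlation of TET_KO on D0 with TET_WT on D2 was 0.95, against 0.82 with TET_WT on D0, over 56998 windows that share their libraries. TET_WT on D2 had a like correlation with TET_KO on D1 (0.955) and D2 (0.949), so the value was not particular to naive knockout cells.

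**Figure D5:**
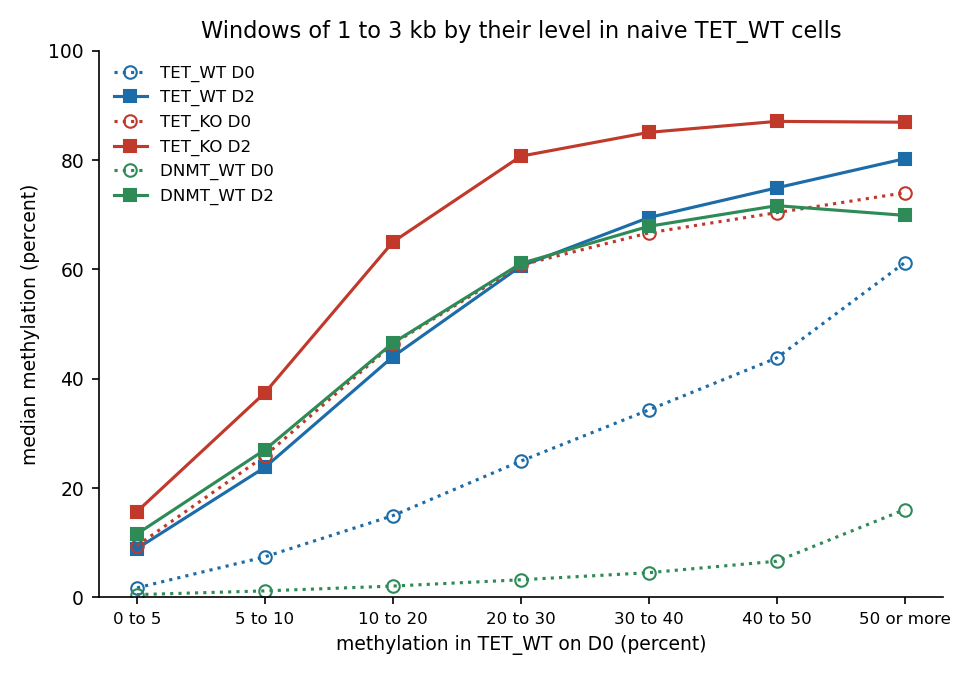
Median methylation in percent (vertical axis) of the 1 to 3 kb windows in 7 classes of their level in TET_WT on D0 (horizontal axis, percent), for D0 (open circles) and D2 (filled squares) of each line. The curves of TET_WT on D2, DNMT_WT on D2 and TET_KO on D0 run close together up to 40 percent, from 8.92 percent for TET_WT on D2 in the lowest class, and spread to 80.2, 69.9 and 74.0 percent in the highest, and TET_KO on D2 lies above them.

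The gain from D0 to D2 differed between the lines in many windows, tested as an interaction in the same fit. It was smaller in TET_KO in 28665 windows (50.3 percent) and larger in 117 (0.205 percent), against 44.2 and 2.5 percent of all tested windows. The mean gain was 25.2 points in TET_WT and 14.8 in TET_KO, and the mean difference of gains was -10.4 points, or -0.764 once centred. On the logit scale the counts were 18912 smaller and 64 larger, and centred on the library medians 8402 and 5071. The windows with the smallest gains relative to the parent were already high in TET_KO on D0. That level enters the ranking, so the choice of windows favours it. Acly, the gene of ATP citrate lyase, went from 21.7 to 79.0 percent in TET_WT and 78.7 to 84.7 in TET_KO, and the gains differed by -51.2 points (SE 3.66, limma adjusted p = 1.61e-09). The glycolipid transfer gene Gltp went from 8.27 to 71.3 percent in TET_WT and 65.7 to 85.0 in TET_KO, and the connexin gene Gjb5 from 11.6 to 68.9 percent in TET_WT and 71.0 to 85.3 in TET_KO. Kit, the Wnt target Axin2 and the glycosyltransferase gene Galnt2 had differences in gain of -42.3, -42.0 and -40.2 points. By list, the number of windows with a smaller gain in TET_KO was 100 of 168 for blood and endothelial regulators, 42 of 74 for methylation machinery, 13 of 26 for germline, 20 of 53 for formative and primed epiblast, 20 of 56 for naive pluripotency and 17 of 62 for imprinted loci. It was 7 of 34 for ubiquitously expressed genes, 13 of 65 for mesoderm and endoderm, 5 of 79 for neuroectoderm and 3 (2.97 percent) for Hox genes.

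The 117 windows with a larger gain in TET_KO had medians of 8.14 and 20.8 percent in TET_WT on D0 and D2, and of 32.9 and 59.0 in TET_KO. Rest, the repressor of neuronal genes, read 1.72, 1.73 and 1.05 percent and 15.1, 21.5 and 15.0 percent in TET_WT, and 31.6, 36.5 and 35.6 percent and 72.7, 76.2 and 65.5 percent in TET_KO. Its gains differed by 21.2 points (SE 2.85, limma adjusted p = 1.40e-06). Sox6, a developmental transcription factor, went from 31.7 to 37.7 percent in TET_WT and 55.6 to 83.4 in TET_KO (limma adjusted p = 0.00741). Erbb4, a neuregulin receptor, went from 31.5 to 30.9 percent in TET_WT and 55.0 to 74.7 in TET_KO (limma adjusted p = 0.0126, and 0.0587 on the logit scale). Among naive pluripotency genes 4 windows gained more in TET_KO, named here after their values were seen. All 4 were below 3 percent in both lines on D0. They were the Nanog start shown above (0.116 to 5.23 percent in TET_WT and 1.61 to 22.6 in TET_KO), 2 adjoining windows of Esrrb (0.153 to 13.3 percent in TET_WT and 0.391 to 24.5 in TET_KO, and 0.320 to 20.2 percent in TET_WT and 2.98 to 33.1 in TET_KO) and 1 window of the Krüppel-like factor Klf2 (0.0703 to 14.0 percent in TET_WT and 0.0535 to 27.5 in TET_KO). The Esrrb differences of 11 and 10.2 points lie close to the minimum of 10, and neither passed on the logit scale (limma adjusted p = 0.152 and 0.137). The first fell to 9.79, 9.42 and 8.50 points without TET_WT D2 library 1, TET_WT D2 library 3 or TET_KO D2 library 2. The second fell to 7.65, 9.73, 9.80 and 8.69 points without TET_WT D2 library 1, TET_KO D0 library 2, TET_KO D2 library 1 or TET_KO D2 library 2.

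The wild-type lines differed strongly on D0 and D1 and little on average on D2. DNMT_WT was lower than TET_WT in 37720 windows on D0 (66.2 percent, against 88.9 percent of all tested) and higher in 0 (against 0.0009 percent). By limma 12 windows were higher at an unadjusted p under 0.05, 0 of them by 10 points or more, and the logit scale also gave 0. On D1 it was lower in 32724 (57.4 percent, against 85.6) and higher in 20 (against 0.0126 percent). On D2 it was lower in 3892 (6.83 percent, against 10.5) and higher in 2564 (4.5 percent, against 1.78). Centred on the library medians the counts higher and lower were 22962 and 9536 on D0, 25833 and 5789 on D1, and 5845 and 2409 on D2. With both TET_WT libraries numbered 2 of D1 and D2 left out, an alternative chosen after seeing the data, DNMT_WT was higher in 3733 windows and lower in 3130 on D2, so the balance between the directions on that day rests on those libraries. The largest difference with DNMT_WT higher was in Msi2, an RNA-binding regulator of stem cells, at chr11:88687479-88689993, with 7.76, 14.3 and 9.98 percent in TET_WT and 65.4, 69.7 and 64.8 percent in DNMT_WT. Rapgef3, the cAMP sensor Epac1, read 30.1, 32.3 and 30.3 percent and 76.4, 75.6 and 79.1 percent. Of the windows outside gene bodies 18.6 percent were lower in DNMT_WT on D2, against 3.58 percent of those in gene bodies.

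At the extremes, 3260 windows (5.72 percent) were below 10 percent in all 9 groups. They were short, with a median of 1301 bp, 38.5 percent held a gene start and 52.6 percent adjoined a window of under 1 kb, against 11.4 and 16.9 percent of the whole class. At the other end, 4844 windows were at 50 percent or more in naive TET_WT cells. Of these 34.1 percent overlapped a gene body, 1.17 percent held a start, and their median in DNMT_WT on D0 was 16.1 percent, against 2.55 for the class. Their median length, 2149.5 bp, was below that of the class, so they did not follow the rise of methylation with length. The 1406 windows that kept 20 percent or more in DNMT_WT on D0 overlapped gene bodies in 26.9 percent and had a median of 66.7 percent in TET_WT on that day. Of 17177 windows below 10 percent in TET_WT on D0, 35.0 percent were still below 10 on D2, and 19.8 percent were below 10 in TET_KO on D2.

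The windows were scattered over all 19 autosomes. By chromosome their median in TET_KO on D0 ran from 47.6 percent on chromosome 7 to 59.5 on chromosome 16, and in TET_WT on D0 from 16.1 on chromosome 11 to 23.3 on chromosome 8. Most stood alone or in short runs: 48.1 percent had no neighbour of the class, and 95 runs held 10 or more. The longest run, of 27 windows, lay in Lrp1, a lipoprotein receptor gene, at chr10:127535037-127595103. Its mean rose from 24.4 ± 0.360 percent in TET_WT on D0 to 57.7 ± 1.37 on D2 (SD, n = 3), and was 59.0 ± 1.55 in TET_KO on D0 and 77.6 ± 1.31 on D2. That long dense gene body therefore had levels close to the class medians in each of these groups.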

How the data were processed

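Whole-genome bisulfite libraries of 9 groups (3 lines, 3 days, 3 replicates each) were analysed from 1 deposited table of methylation in percent per window of 100 CpG; the authors' averaging within a window and any coverage minimum are not given in the sources used here. Per the submitters' processing notes, tools included Trim Galore 0.6.6, cutadapt 2.3 and Bismark 0.23.0 with build GRCm38. Windows without a value in all 27 libraries or off the nuclear chromosomes were left out, which left 444250. A model with 1 mean per group was fitted to all of them in limma 3.58.1 (R 4.3.3) on the percent scale, with Benjamini-Hochberg adjustment per contrast. Calls needed an adjusted p under 0.05 together with 10 or more points of difference. The fit of TET_KO against TET_WT on D2 alone was tested on simulated data. It called 19 of 50 windows changed by 10 points, 40 of 50 changed by 15, and 50 of 50 changed by 20 or by 30. A change equal to the minimum difference can fall under it through noise alone. Few windows were changed in the simulation and most differ in the data, so these shares do not carry over. The table holds no read counts, so depth and its precision are unknown and no interval was computed.

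The windows and the 10 gene lists were chosen with earlier results of these data known. The text names, per contrast and direction, called windows with the largest differences whose libraries do not overlap, up to 4 genes per list, and other genes only where it says so. Gene bodies and starts came from RefSeq tables (GRCm38.p6); chromosome 18 starts were not used. Alternatives were a minimum of 20 points, centring on library medians, the logit scale, the groups of a contrast alone, a replicate block, leaving out each library and, chosen after seeing the data, leaving out both TET_WT libraries numbered 2 of D1 and D2. No pair of libraries shared more than 0.0200 percent identical nonzero values.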

Additional observations from a re-analysis of the deposited data

Results flagged for a closer look

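The gain in methylation from D0 to D2 differed between TET_KO and TET_WT by a test of the difference itself. It was larger in TET_KO in 117 windows and smaller in 28665, against 2.5 and 44.2 percent of all tested windows. Once each library was centred on its median, it was larger in 5071 and smaller in 8402. Larger gains were found in windows of Sox6 (21.8 points), Rest (21.2), Erbb4 (20.3), Nanog (15.9), Klf2 (13.5) and in 2 windows of Esrrb (11 and 10.2). On the logit scale the Erbb4 window (limma adjusted p = 0.0587) and both Esrrb windows (limma adjusted p = 0.152 and 0.137) did not pass, and the Esrrb differences fell below 10 points with several single libraries left out. Smaller gains were found in windows of Acly (-51.2 points), Gltp (-43.7), Gjb5 (-43.0), Kit (-42.3), Axin2 (-42.0) and Galnt2 (-40.2).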

How the results depend on the processing

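With each library centred on the median of its tested windows, the numbers of windows called became 663 (TET_WT D0 to D1), 19652 (TET_WT D1 to D2), 8397 (DNMT_WT D0 to D1), 23390 (DNMT_WT D1 to D2), 368 (TET_KO D0 to D1), 5849 (TET_KO D1 to D2), 27295 (TET_KO against TET_WT D0), 26255 (TET_KO against TET_WT D1), 22270 (TET_KO against TET_WT D2) and 13473 (the difference of gains). With a minimum of 20 points they became 157 (TET_WT D0 to D1), 26950 (TET_WT D1 to D2), 7450 (DNMT_WT D0 to D1), 16 (TET_KO D0 to D1), 1072 (TET_KO D1 to D2), 13504 (TET_KO against TET_WT D2), 24996 (DNMT_WT against TET_WT D0), 17464 (DNMT_WT against TET_WT D1), 928 (DNMT_WT against TET_WT D2) and 7982 (the difference of gains), and on the logit scale 18976 (the difference of gains). Fits of the groups of a contrast alone stayed within 1.5 times. Leaving out 1 library gave 14997 to 21518 (TET_WT D0 to D1), 46163 to 46688 (TET_KO against TET_WT D0), 37588 to 37807 (DNMT_WT against TET_WT D0), 25931 to 30500 (the difference of gains), 41816 to 44103 (TET_WT D1 to D2), 45540 to 46309 (TET_KO against TET_WT D1), 31892 to 34074 (DNMT_WT against TET_WT D1), 36445 to 40518 (TET_KO against TET_WT D2), 6505 to 6846 (DNMT_WT against TET_WT D2), 8823 to 13773 (TET_KO D0 to D1), 18219 to 23423 (TET_KO D1 to D2), 31360 to 32082 (DNMT_WT D0 to D1), 50402 to 50592 (DNMT_WT D1 to D2). Mean differences moved without turning for 1.16 (DNMT_WT D0 to D1) and -0.764 (the difference of gains) under centring, and turned sign there for the others: -1.24 (TET_WT D0 to D1), -4.37 (TET_WT D1 to D2), -8.16 (DNMT_WT D1 to D2), -2.26 (TET_KO D0 to D1), -4.12 (TET_KO D1 to D2), -5.70 (TET_KO against TET_WT D0), -6.72 (TET_KO against TET_WT D1), -6.47 (TET_KO against TET_WT D2), 4.30 (DNMT_WT against TET_WT D0), 6.70 (DNMT_WT against TET_WT D1) and 2.92 (DNMT_WT against TET_WT D2) points. That of DNMT_WT against TET_WT D2 also turned, to 0.514, 1.06, 0.179 points with the median over windows or with 1 library numbered 2 of either line left out, and ran from -0.936 to 1.06 over the libraries left out. Of 140 named windows, those that turned were, under centring, -1.94 (Hoxa3, TET_WT D1 to D2), -5.38 (Gapdh, TET_WT D1 to D2), -17.6 (Nanog, TET_WT D1 to D2), -22.2 (Trim28, TET_WT D1 to D2), -28.9 (Nanog, TET_KO against TET_WT D0), -27.4 (Tcl1, TET_KO against TET_WT D0), -30.0 (Trim28, TET_KO against TET_WT D0), -3.35 (Nanog, TET_KO against TET_WT D2), -19.9 (Tcl1, TET_KO against TET_WT D2), and with 1 library left out Trim28 (TET_WT D1 to D2), from -0.0900 to 0.619, and Tcl1 (TET_KO against TET_WT D2), from -0.398 to 3.05. Under centring 20 others kept their direction and lost their call: in TET_WT D1 to D2 Klf5, Etv4, Fgf5, Majin, Piwil1, Sgce, Meg3, Tbx6, Eomes, Pax7, Tubb3, Hoxa9, Eef2, Tcl1, in TET_KO D0 to D1 Zfhx3, Bard1, in TET_KO against TET_WT D0 Fgf5, Hoxd3, Hoxa7, in TET_KO against TET_WT D2 Tal1. Windows near 0 in both groups, such as Trim28, come out lower under centring by construction. The cause of the other changes was not tested.

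Deviations of same-numbered libraries from their group means correlated between -0.0894 and 0.0485 over 108 pairs. A correlation over windows does not see a shift shared by whole libraries, so it cannot tell whether replicate numbers pair them. With the replicate block the counts were 17241 (TET_WT D0 to D1), 43331 (TET_WT D1 to D2), 31981 (DNMT_WT D0 to D1), 50527 (DNMT_WT D1 to D2), 9996 (TET_KO D0 to D1), 20400 (TET_KO D1 to D2), 46522 (TET_KO against TET_WT D0), 46089 (TET_KO against TET_WT D1), 38588 (TET_KO against TET_WT D2), 37721 (DNMT_WT against TET_WT D0), 32743 (DNMT_WT against TET_WT D1), 6466 (DNMT_WT against TET_WT D2) and 28788 (the difference of gains), and no named window changed its call. Without read counts, low-covered windows cannot be told from well-covered ones.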
